A study of Saccharomyces cerevisiae with 18 samples.

Results

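Ribosome biogenesis factor genes of budding yeast, Saccharomyces cerevisiae, were followed by RNA-seq across 6 strains. Members were chosen by name: every gene of the deposited table whose systematic ID carries a standard symbol made of UTP, NOP, RRP, NOC or RPF and a number. The rule uses no measured value, but the members were chosen with earlier results of these data known. It gave 58 genes of the 5830 in the table, and all 58 were among the 5786 genes with enough reads to be tested.

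The study asked how transcription depends on the ISW1a chromatin remodeler, in which the Isw1 ATPase works with the accessory subunit Ioc3, and how that dependence changes when Yaf9, a subunit shared by the NuA4 histone acetyltransferase and the SWR1 remodeler, is missing. The wild type carried intact ISW1a. The ioc3Δ strain lacked IOC3, and the ioc3ΔcHLB strain made an Ioc3 protein truncated in its HLB domain, which contacts linker DNA. The yaf9Δ strain lacked YAF9 and had intact ISW1a, and the remaining strains, ioc3Δ yaf9Δ and ioc3ΔcHLB yaf9Δ, combined the lesions. All 6 strains had the BY4742 background and are labelled with a FLAG epitope, and all were grown in rich medium (YPD) to mid-log phase. Each strain was sampled as 3 independent biological replicates, which gave 18 libraries of 5145170 to 10192972 reads.

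Ribosomes are built in the nucleolus, where RNA polymerase I transcribes a long precursor RNA that is folded, modified and cut by a large set of assembly factors. UTP proteins form the small-subunit processome around the U3 small nucleolar RNA (snoRNA), NOP and RRP proteins modify, process or hold the precursor, and NOC and RPF proteins help to assemble and export the pre-ribosomes. The genes for these factors are known as a coregulated group, the ribosome biogenesis regulon, which is switched with growth rate. Many of their promoters hold the PAC element, bound by the repressors Tod6 and Dot6, and the RRPE element, bound by Stb3.

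Both elements were common in front of the members. A window of 300 bases, from 250 bases before the annotated start of the gene to the first 50 bases of the coding sequence, was read from the R64 reference genome for each member and for 5631 protein-coding genes of the table in all. The letters GATGAG, the PAC core, were present on either strand in 49 of the 58 windows (84.5%), against 20% of all windows. The letters AAAATTTT, the RRPE core, which reads the same on both strands and cannot overlap the PAC core, were present in 36 windows (62.1%), against 9.36% of all. Both cores occurred together in 32 members (55.2%), against 4.64% of all windows, and 5 members, UTP22, UTP30, RRP42, RRP45 and RRP46, had neither.

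The 6 windows printed here were picked after values were seen. RRP42 and UTP10 had the lowest, and NOP6 and NOP2 the highest, change on loss of Ioc3 in cells without Yaf9, and NOP1 and NOP56 are abundant snoRNA-protein genes. They run 5′ to 3′ along the coding strand, and capitals mark the PAC and RRPE cores. The RRP42 window lies at chrIV:264061-264360 on the minus strand and has no capitals. UTP10 lies at chrX:217260-217559 (minus), NOP6 at chrIV:77917-78216 (minus), NOP2 at chrXIV:510290-510589 (plus), NOP1 at chrIV:427114-427413 (plus) and NOP56 at chrXII:545847-546146 (plus).
RRP42: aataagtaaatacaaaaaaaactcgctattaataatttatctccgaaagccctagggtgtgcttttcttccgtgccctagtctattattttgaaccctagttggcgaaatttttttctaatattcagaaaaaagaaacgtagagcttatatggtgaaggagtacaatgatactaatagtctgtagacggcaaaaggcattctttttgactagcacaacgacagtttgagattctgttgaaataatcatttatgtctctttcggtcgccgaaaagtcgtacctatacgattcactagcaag
UTP10: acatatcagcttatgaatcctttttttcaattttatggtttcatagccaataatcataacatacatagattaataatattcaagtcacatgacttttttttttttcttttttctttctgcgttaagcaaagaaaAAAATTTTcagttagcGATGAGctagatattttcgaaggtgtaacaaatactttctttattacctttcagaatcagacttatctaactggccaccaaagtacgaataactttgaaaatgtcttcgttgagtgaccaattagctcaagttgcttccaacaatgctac
NOP6: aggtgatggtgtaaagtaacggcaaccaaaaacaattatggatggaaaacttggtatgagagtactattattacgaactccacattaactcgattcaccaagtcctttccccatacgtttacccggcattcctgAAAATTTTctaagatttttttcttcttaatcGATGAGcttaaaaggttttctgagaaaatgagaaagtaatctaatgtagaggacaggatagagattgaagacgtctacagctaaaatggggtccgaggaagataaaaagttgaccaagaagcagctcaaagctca
NOP2: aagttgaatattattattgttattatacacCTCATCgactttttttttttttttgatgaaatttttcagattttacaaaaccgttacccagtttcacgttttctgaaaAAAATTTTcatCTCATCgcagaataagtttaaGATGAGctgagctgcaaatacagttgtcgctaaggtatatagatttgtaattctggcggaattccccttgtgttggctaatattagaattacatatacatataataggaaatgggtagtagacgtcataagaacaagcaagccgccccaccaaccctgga
NOP1: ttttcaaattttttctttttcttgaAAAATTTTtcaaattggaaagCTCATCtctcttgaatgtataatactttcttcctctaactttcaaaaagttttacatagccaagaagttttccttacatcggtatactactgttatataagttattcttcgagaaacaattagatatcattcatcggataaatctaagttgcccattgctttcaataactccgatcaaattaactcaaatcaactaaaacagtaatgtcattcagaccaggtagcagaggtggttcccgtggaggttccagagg
NOP56: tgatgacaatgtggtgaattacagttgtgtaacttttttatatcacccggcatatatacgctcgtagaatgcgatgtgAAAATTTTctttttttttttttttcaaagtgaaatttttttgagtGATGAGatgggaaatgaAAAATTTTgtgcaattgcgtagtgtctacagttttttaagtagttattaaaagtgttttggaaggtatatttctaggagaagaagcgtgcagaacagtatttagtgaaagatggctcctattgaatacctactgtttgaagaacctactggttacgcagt

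In UTP10 the RRPE core began at base -116 from the start and the PAC core at -100. In NOP6 they began at -116 and -85. The NOP2 window held 3 PAC cores, at -220, -131 and -110, with an RRPE core at -142 between the first and the second. The NOP1 pair sat farther upstream, at -225 and -204. Over all members the 74 PAC cores had a median first base of -116 and the 44 RRPE cores one of -133, so most matches lay in a shared stretch upstream of the start.

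**Figure D1:**
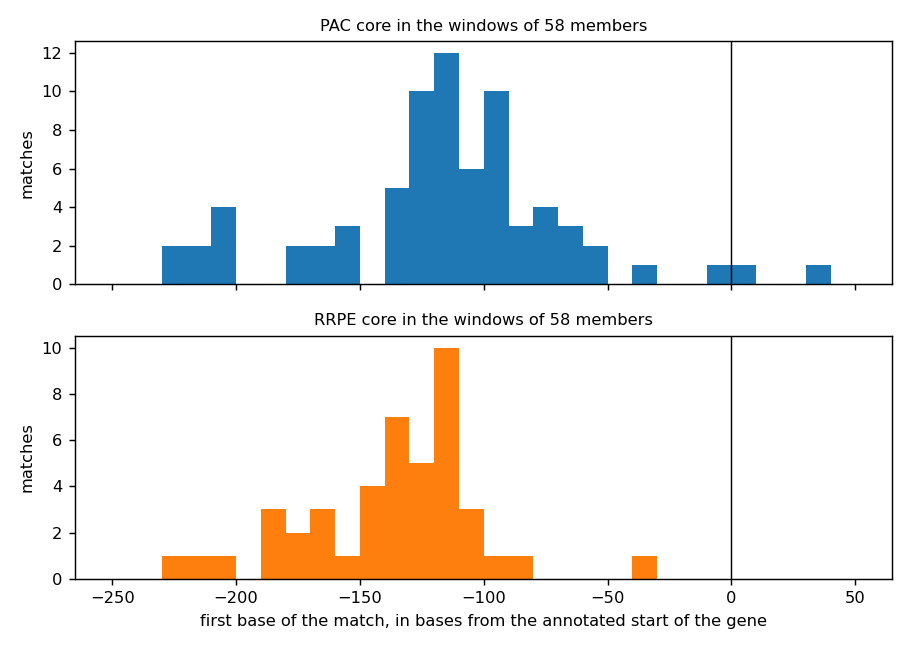
Histograms of the position of every PAC core (upper panel, 74 matches) and RRPE core (lower panel, 44 matches) in the 58 windows, in bases from the annotated start of the gene (0, vertical line), in bins of 10 bases. Most matches lie upstream of the start, with medians of -116 and -133.

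The share of windows with a PAC core differed by role. It was 16 of 17 for the large-subunit factors, 14 of 15 for the small-subunit factors outside the UTP subcomplexes, and 3 of 7 for the exosome subunits, none of which had both cores. Of the 138 genes of cytosolic ribosomal proteins, 10.9% had a PAC core. These matches describe letters in a window and were not tested as binding sites.

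The members were well expressed. Values are CPM, read counts normalised to library size by the authors. The wild-type means ranged from 44.8 CPM for NOP19, a small-subunit factor, to 1963 CPM for NOP1, the fibrillarin methyltransferase of the box C/D snoRNA-protein particles, and the lowest count of any member in any library was 170 reads. Per kilobase of gene, the wild-type level had a median of 143 CPM over the members against 41.2 CPM over 5610 tested genes with a known length, and 57 of the 58 members lay above that median. On this per-kilobase scale NOP10, the small H/ACA protein, and NOP1 were highest, at 2005 and 1995 CPM, and UTP20, the longest member at 7482 bases, was lowest at 35.9 CPM.

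The deletion labels were borne out by the deleted genes. IOC3 had 2 reads over the 3 ioc3Δ libraries and 1 read over the 3 ioc3Δ yaf9Δ libraries, against 58.3 to 62.4 CPM in the wild type. YAF9 had 3 reads over the 3 yaf9Δ libraries and 0 over the 6 double-mutant libraries (0 in each strain), against 29.9 to 36.8 CPM in the wild type. The truncation labels were not checked in this way. IOC3 stood at 60.8 to 71.2 CPM in ioc3ΔcHLB, and counts per gene do not show which part of a gene is missing. The libraries of a strain were not alike: the 3 of yaf9Δ were close, with a median SD of 0.06 over the members on the log2 scale, while those of ioc3ΔcHLB and of ioc3ΔcHLB yaf9Δ were spread, with median SDs of 0.24 and 0.28. In ioc3ΔcHLB, replicate 3 was the lowest library for 50 members, and in ioc3ΔcHLB yaf9Δ, replicate 1 was the highest for 55. In the wild type, replicate 2 was the lowest for 44.

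In ioc3Δ the whole group was lower than in wild type. The 58 genes took 1.29% ± 0.09 of the reads in ioc3Δ (SD, n = 3), with libraries at 1.23%, 1.40% and 1.25%, against 1.69% ± 0.13 in the wild type, at 1.66%, 1.59% and 1.84%. The ranges of the libraries did not overlap. All 58 members were below wild type, with log2 fold changes, measured on log2(CPM + 1), from -0.73 (NOP13) to -0.24 (RRP40, an exosome cap subunit) and a median of -0.46, while the median over all tested genes was 0.01. The median member stood at 0.727 of its wild-type level.

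In 54 members every ioc3Δ library was below every wild-type library, and such a fall occurred in 17.7% of all tested genes; UTP10, NOP6, NOP10 and RRP9 were the members whose libraries overlapped. At an adjusted p under 0.1 with no limit on the fold (limma, Benjamini-Hochberg over all tested genes), 51 members were lower and none higher, against 12.8% of all genes lower. At that p with at least a 1.5-fold change, the rule for a call here, 4 members were lower, against 3.11% of all genes. They were NOP13, RPF2, RPF1 and UTP5; RRP1 lay just outside, at 1.499-fold lower. UTP5, RRP1, RRP8 and other members named only for a call or an extreme value fall outside the rule by which genes were named and were picked after their values were seen. RNA content per cell was not measured, so fewer transcripts per cell and a smaller share of the RNA cannot be told apart.

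**Figure D2:**
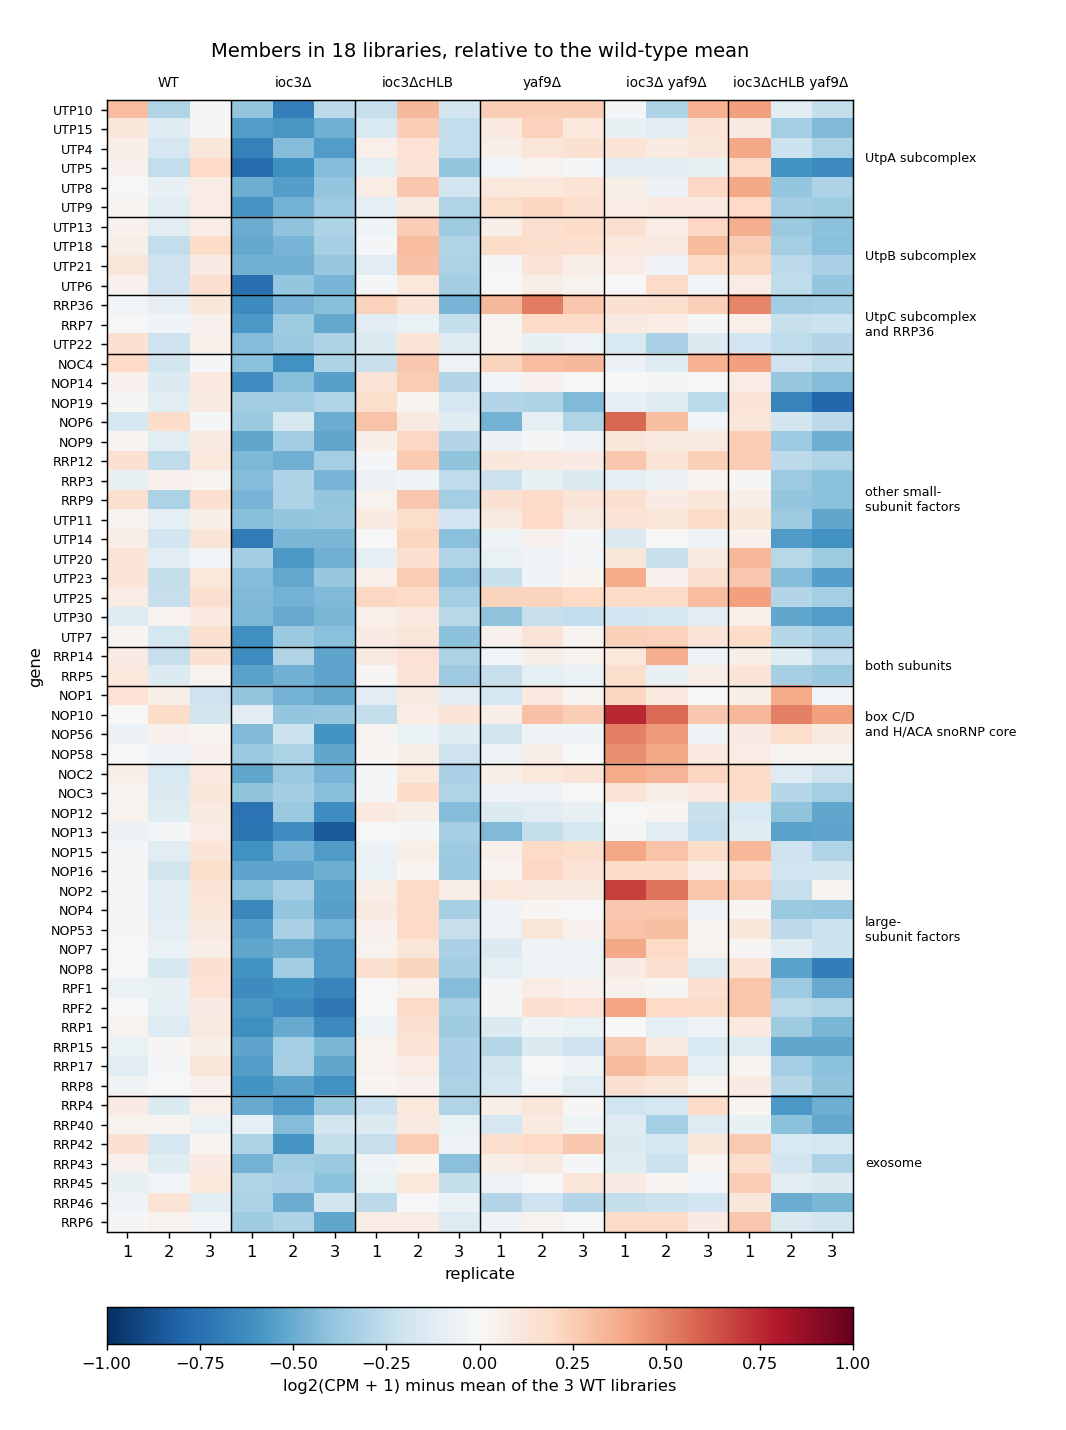
Heat map of the 58 members (rows, grouped by role) in the 18 libraries (columns, by strain and replicate). Colour is log2(CPM + 1) minus the mean of the 3 wild-type libraries, from -1 (blue) to 1 (red); the 3 ioc3Δ columns are blue in nearly every row, and the single red and blue columns within other strains show the spread of their replicates.

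NOP13, an RNA-recognition-motif protein of pre-ribosomes, moved most. It stood at 294, 304 and 323 CPM in the wild type and at 185, 199 and 171 CPM in ioc3Δ. The 2 ranges did not overlap, and NOP13 fell by 0.73 on the log2 scale (SE 0.12, adjusted p = 0.00112 by limma), or 1.66-fold. RPF2, which with Rrs1 brings the 5S particle into the large subunit, stood at 317, 297 and 334 CPM in the wild type and at 211, 203 and 191 CPM in ioc3Δ. It fell by 0.64 (SE 0.14, adjusted p = 0.00698 by limma).

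RPF1, a Brix-domain protein of early large-subunit particles, went from 139, 138 and 160 CPM to 93.5, 95.8 and 91.7 CPM, lower by 1.54-fold with an adjusted p of 0.0143 by limma. UTP5, a UtpA subunit, went from 347, 284 and 388 CPM to 198, 220 and 249 CPM, lower by 1.52-fold with an adjusted p of 0.0299 by limma. Wild-type replicate 2 was the lowest wild-type library for UTP5, as for most members. Without it 15 members were called, among them UTP10, NOP14 and UTP4; without ioc3Δ replicate 2 there were 10, and without wild-type replicate 3 there were 2, NOP13 and RPF2. With libraries scaled to their total reads, NOP13 alone was called and 22 members had an adjusted p under 0.1, but all 58 were still below wild type, as they were in each of the 16 alternatives run.

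The fall ran through every role. The 17 large-subunit factors had a median of -0.52, and all had an adjusted p under 0.1 (limma); NOP7, of the complex with Erb1 and Ytm1, went from 696, 667 and 729 CPM to 487, 497 and 470 CPM. The 6 UtpA, 4 UtpB and 3 UtpC or RRP36 genes had medians of -0.51, -0.44 and -0.48. Other small-subunit factors had a median of -0.44; NOP14, which pairs with NOC4 on the small-subunit precursor, went from 212, 188 and 221 CPM to 134, 153 and 142 CPM.

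The snoRNA-protein and exosome genes had the smallest medians, the 4 snoRNA-protein genes one of -0.41; roles were not tested against each other. NOP1 stood at 2161, 2034 and 1695 CPM in the wild type and at 1483, 1407 and 1370 CPM in ioc3Δ (log2 -0.46, SE 0.13, adjusted p = 0.019 by limma). NOP10 went from 353, 401 and 310 CPM to 329, 270 and 271 CPM, with libraries that overlapped and an adjusted p of 0.15 by limma. The 7 exosome genes, subunits of the nuclease that trims rRNA precursors and degrades many other RNAs, had a median of -0.38; RRP6, its nuclear catalytic subunit, went from 191, 198 and 190 CPM to 151, 156 and 135 CPM, and RRP4, a cap subunit, from 155, 133 and 151 CPM to 102, 98.3 and 113 CPM. By promoter, the 32 members with both cores had a median of -0.47, the 17 with only PAC -0.46 and the 4 with only RRPE -0.47. The 5 with neither core had one of -0.37, but 3 of these were exosome genes, so promoter and role cannot be told apart. Promoter classes were not tested against each other.

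Truncating the HLB domain left the members near wild type on average, but its libraries differed. The members took 1.83%, 1.82% and 1.31% of the reads in the 3 libraries of ioc3ΔcHLB. The last share was below every wild-type library and within the ioc3Δ range of 1.23% to 1.40%. In CPM, the scale of the tests, it was not within that range. The members of that library summed to 13859 CPM, against 11696 to 12154 in ioc3Δ and 15477 to 16962 in the wild type. In ioc3ΔcHLB the log2 fold changes ran from -0.14 to 0.11 with a median of -0.05, and 48 members were below 0. No member was called (limma), none had an unadjusted p under 0.05, and neither edgeR nor DESeq2 called any; of all genes, 0.0173% were called lower and 0.328% higher. NOP13 stood at 306, 305 and 244 CPM and NOP7 at 716, 757 and 556 CPM, with replicate 3 the low library in both. Without that replicate the median was 0.07 and 14 members were below 0, and without replicate 2 it was -0.15, so the direction of these small values rests on 1 library. SEs ran from 0.09 to 0.20.

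Set against ioc3Δ directly, ioc3ΔcHLB was higher for all 58 members, with a median of 0.42 and an all-gene median of -0.01. The call was reached by 2 members, NOP13 (0.62, SE 0.12) and RPF2 (0.60, SE 0.14), against 2.42% of all genes called higher, and 44 members had an adjusted p under 0.1 at any fold, against 10.4% of all genes (limma). Without ioc3ΔcHLB replicate 3 there were 20 called, and without ioc3Δ replicate 2 there were 7. Without ioc3Δ replicate 3, ioc3ΔcHLB replicate 1 or ioc3ΔcHLB replicate 2, and with scaling to total reads, there were 0. All 58 stayed higher in each of the 16 alternatives run.

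In yaf9Δ the group stood on both sides of wild type. There the members ran from -0.35 (NOP19) to 0.37 (RRP36, needed for early cleavages), with a median of 0.02, and 26 were below 0. None was called (limma), 1 had an unadjusted p under 0.05, edgeR and DESeq2 called none, and of all genes 3.61% were called lower and 3.91% higher. UTP10 stood at 480, 479 and 479 CPM in yaf9Δ against 501, 328 and 400 CPM in the wild type, and NOP13 at 226, 260 and 271 CPM. Scaling to total reads moved all genes by a median of -0.10 and the members' median to -0.07, and without wild-type replicate 2 it was -0.02, so the small positive value has no stable direction.

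In cells without Yaf9, the members were not lower as a group when Ioc3 was lost too. The 58 members took 1.77% ± 0.05 of the reads in ioc3Δ yaf9Δ (SD, n = 3), at 1.82%, 1.78% and 1.73%, and 1.60% ± 0.06 in yaf9Δ, at 1.53%, 1.64% and 1.62%. The log2 fold changes of ioc3Δ yaf9Δ against yaf9Δ ran from -0.27 (RRP42, an exosome ring subunit) to 0.57 (NOP6, a small-subunit factor), with a median of 0.05 and an all-gene median of 0.01; 40 members were above 0 and 18 below. No member was called (limma), against 6.17% of all genes lower and 3.53% higher, although 6 had an unadjusted p under 0.05, all of them higher. At an adjusted p under 0.1 with no fold limit 4 were higher, NOP6, NOP2, NOP56 and NOP58, against 9.26% of all genes.

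NOP6 was the member nearest to a call. It stood at 122, 159 and 137 CPM in yaf9Δ and at 253, 208 and 166 CPM in ioc3Δ yaf9Δ, ranges that did not overlap (SE 0.16, adjusted p = 0.0294 by limma). It was called by edgeR and by DESeq2, under scaling by median of ratios or by total reads, and without yaf9Δ replicate 2 or ioc3Δ yaf9Δ replicate 3. NOP2, the methyltransferase of the large rRNA, stood at 435, 429 and 430 CPM in yaf9Δ and at 650, 587 and 490 CPM in ioc3Δ yaf9Δ (log2 0.41, SE 0.12, adjusted p = 0.0372 by limma). At the other end UTP10 stood at 399, 325 and 514 CPM in ioc3Δ yaf9Δ, on both sides of its level in yaf9Δ.

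The difference between these 2 effects was tested for each gene as an interaction: the effect of ioc3Δ without Yaf9 minus its effect with Yaf9. Its 12 libraries are 3 of each strain, and the subtracted effects share none. All 58 members were above 0, from 0.08 (RRP40) to 0.91 (NOP6), with a median of 0.54 against an all-gene median of -0.05. The call was reached by 22 members, all higher, against 3.27% of all genes called higher, and 28 had an adjusted p under 0.1 at any fold, against 5.82% of all genes (limma). edgeR called 23 and DESeq2 called 26.

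**Figure D3:**
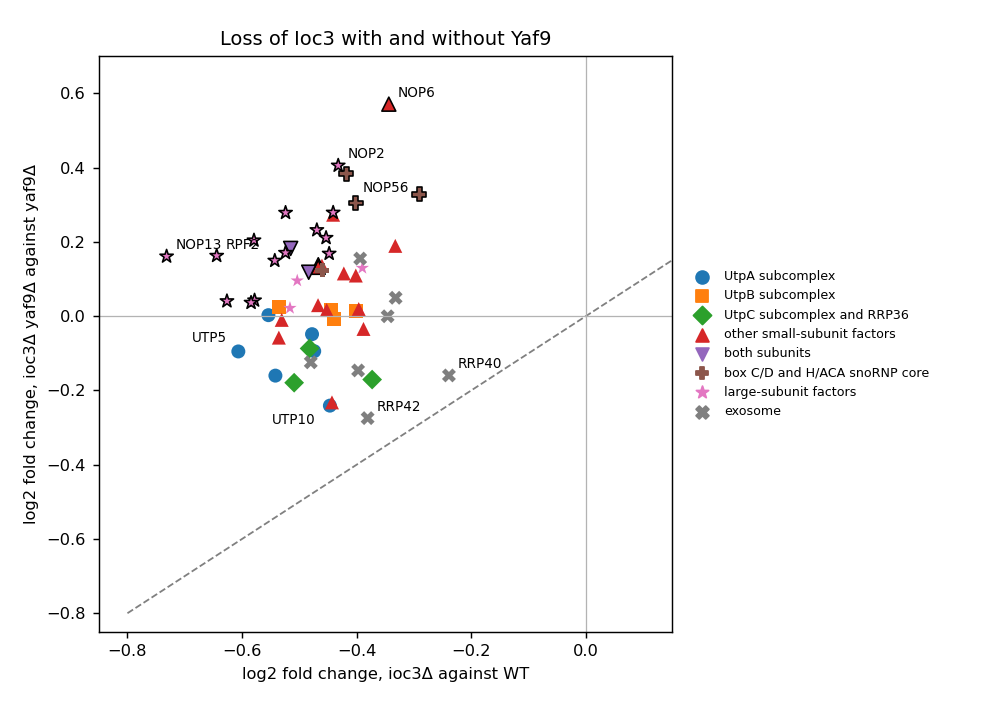
Log2 fold change of each member in ioc3Δ against wild type (horizontal) and in ioc3Δ yaf9Δ against yaf9Δ (vertical), with symbols by role, black outlines for the 22 members called in the interaction test and a dashed line where the effects would be equal. Every point lies left of 0 and above the dashed line; NOP6, a small-subunit factor, lies highest at 0.57, and all 17 large-subunit and all 4 snoRNA-protein genes lie above 0 on the vertical axis.

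The members that were called were mostly of 2 kinds. Of the 17 large-subunit factors 14 were called, with a median interaction of 0.69, and of the 4 snoRNA-protein genes 3 were called (NOP10, NOP56 and NOP58), with a median of 0.66. Both factors that serve the 2 subunits, RRP5 (0.70, SE 0.20, adjusted p = 0.046 by limma) and RRP14, were called. None of the 6 UtpA, 4 UtpB and 3 UtpC or RRP36 genes was, with medians of 0.41, 0.45 and 0.33, nor any of the 7 exosome genes, with a median of 0.35. These counts were not tested against each other. In the lists of other assembly factors described below, calls were common among large-subunit and small-subunit factors alike. Of the small-subunit factors outside these subcomplexes, 3 of 15 were called: NOP6, UTP7 and UTP30.

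NOP56, a core protein of the box C/D particles, fell on loss of Ioc3 with Yaf9 present and rose without Yaf9. The rise is not typical: over the 58 members the change without Yaf9 had a median of 0.05, and 18 were below 0. It stood at 1000, 1074 and 1054 CPM in the wild type, 769, 898 and 688 CPM in ioc3Δ, 919, 1019 and 1014 CPM in yaf9Δ and 1482, 1402 and 1015 CPM in ioc3Δ yaf9Δ. Every ioc3Δ library was below wild type, while 2 of the 3 ioc3Δ yaf9Δ libraries were far above yaf9Δ and replicate 3 was within its range. The interaction was 0.80 (SE 0.18, adjusted p = 0.022 by limma). Its partner NOP58 went from 740, 719 and 761 CPM to 573, 595 and 515 CPM with Yaf9, and from 719, 775 and 741 CPM to 1023, 960 and 792 CPM without it.

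Among the large-subunit factors, NOP13 had an interaction of 0.89 (SE 0.17, adjusted p = 0.013 by limma) and stood at 302, 285 and 259 CPM in ioc3Δ yaf9Δ. NOP2 reached 0.84, RPF2 0.81 and NOP7 0.80. RRP8, a base methyltransferase of the large rRNA, stood at 172, 175 and 181 CPM in the wild type, 116, 121 and 116 CPM in ioc3Δ, 155, 173 and 163 CPM in yaf9Δ and 195, 191 and 179 CPM in ioc3Δ yaf9Δ, so that its highest ioc3Δ library, at 121 CPM, was below its lowest in any other strain, 133 CPM in ioc3ΔcHLB yaf9Δ. NOP53, which directs the exosome to the large-subunit precursor, and NOC2, an export and assembly factor, had interactions of 0.62 and 0.66, and RPF1 one of 0.67.

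Some anchors did not pass. UTP22, of UtpC, and NOC4 had interactions of 0.20 and 0.21, with adjusted p-values of 0.41 and 0.65 by limma. In the same fit RRP4 stood at 0.36 (adjusted p = 0.31 by limma) and RRP9, a U3 protein, at 0.35 (adjusted p = 0.34 by limma). RRP12, an export factor, and UTP20 were at 0.54 and 0.50, with adjusted p-values of 0.15 and 0.18 by limma. RRP6 had an adjusted p of 0.046 by limma at 0.55, under the fold limit. NOP1, at 0.58, was just under it.

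The number of calls depended on single libraries. Without ioc3Δ yaf9Δ replicate 1 there were 6 calls, without ioc3Δ replicate 3 or without yaf9Δ replicate 1 there were 8, and without ioc3Δ yaf9Δ replicate 2 there were 11. Without wild-type replicate 3 or yaf9Δ replicate 3 there were 13, and without ioc3Δ replicate 1 there were 14. Scaling to total reads gave 10. In the 22 alternatives the median stayed between 0.49 and 0.59 with at most 1 member below 0, and 6 members were called in every alternative: NOP13, NOP2, NOP56, NOP58, NOP7 and RRP8.

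Compared with ioc3Δ, which shares its libraries with the tests above, ioc3Δ yaf9Δ was higher for all 58 members, by a median of 0.56 with an all-gene median of -0.03; this comparison was added after values were seen. Of the members 25 were called higher, against 3.49% of all genes, and 50 had an adjusted p under 0.1, against 14.1% (limma). In 54 every ioc3Δ yaf9Δ library was above every ioc3Δ library, against 18.4% of all genes. Scaling to total reads moved all genes by -0.14, put 2 members below 0 and left 5 members called, NOC2, NOP10, NOP15, NOP2 and RPF2; relative to all genes the members' median was 0.58 under that scaling and 0.59 as deposited.

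**Figure D4:**
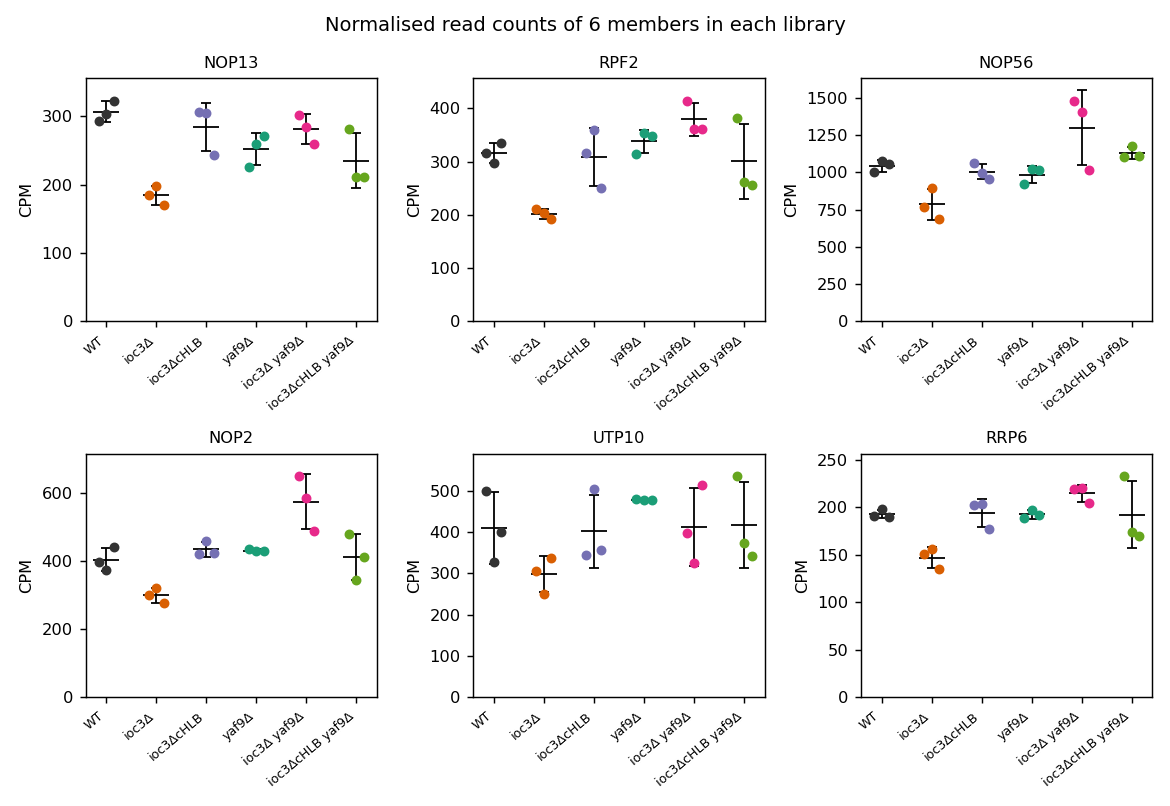
Normalised read counts (CPM, linear axes from 0) of 6 members in the 18 libraries; points are libraries, bars the mean and SD of 3. In NOP13, RPF2, NOP56, NOP2 and RRP6 all 3 ioc3Δ libraries lie below those of every other strain; in UTP10 they overlap them.

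The ioc3Δ yaf9Δ double mutant was near wild type, with most members slightly above. In ioc3Δ yaf9Δ against wild type the members ran from -0.22 to 0.53 with a median of 0.09, and 41 were above 0. Under scaling to total reads the median was 0.02 and 26 members were below 0. None was called (limma), against 6.38% of all genes lower and 5.95% higher, while 5 had an unadjusted p under 0.05 and edgeR and DESeq2 called none. With no fold limit 4 of 58 members had an adjusted p under 0.1 (limma), against 10.9% of all genes higher, a share that the members did not exceed. They were NOP10 (0.53, SE 0.14), NOP2 (0.50, SE 0.12), NOP58 (0.31, SE 0.10) and NOC2 (0.31, SE 0.12). NOP10 stood at 594, 524 and 425 CPM there, above all 3 wild-type libraries, and was called without wild-type replicate 2, where the members' median was 0.03; it and NOP2 were called without ioc3Δ yaf9Δ replicate 3.

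Truncation of the HLB domain in the yaf9Δ background gave mostly negative values, with 1 library apart. The members took 1.75%, 1.33% and 1.27% of the reads in the 3 libraries of ioc3ΔcHLB yaf9Δ. Against yaf9Δ their median was -0.19, with 53 below 0, and none was called (limma), against 2.63% of all genes lower and 2.0% higher; 9 had an unadjusted p under 0.05, all lower, and edgeR and DESeq2 called none. Without replicate 1 the median was -0.35 and RRP36, RRP4 and UTP5 were called lower; without replicate 2 or 3 of this strain it was -0.12 or -0.09. RRP4 stood at 148, 97.5 and 104 CPM against 152, 159 and 147 CPM in yaf9Δ.

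Against wild type the median in ioc3ΔcHLB yaf9Δ was -0.15, with 51 below 0, RRP45 at 0.00 and none called (limma), against 4.77% of all genes lower and 4.10% higher; 11 had an unadjusted p under 0.05, 10 of them lower, and edgeR and DESeq2 called none. Without replicate 1 the median was -0.33 and there were 4 called, NOP19, NOP8, UTP14 and UTP5; without replicate 2 or 3 it was -0.08 or -0.05, and under total-read scaling -0.31. With no fold limit NOP13, RRP15 and RRP40 were lower and NOP10 was higher at an adjusted p under 0.1 (limma), 3 and 1 of 58 members against 11% and 9.13% of all genes, shares that the members did not exceed; NOP10 stood at 444, 501 and 469 CPM, above every wild-type library. Against ioc3ΔcHLB the median was -0.10, none was called (limma), edgeR and DESeq2 called none and 6 had an unadjusted p under 0.05, against 5.06% of all genes called lower and 3.85% higher, and without replicate 1 of the double mutant there were 2 called, NOP19 and NOP8. The comparison with ioc3ΔcHLB was also added after values were seen. Its median ran from -0.27 to -0.01 over the 16 alternatives. The former was without replicate 1 of the double mutant and the latter without its replicate 3 or without ioc3ΔcHLB replicate 2.

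The double mutants themselves differed in the members' median by -0.25, ioc3ΔcHLB yaf9Δ being lower than ioc3Δ yaf9Δ for 55 of 58. None was called (limma), against 2.77% of all genes lower and 2.04% higher, and edgeR and DESeq2 called none. An unadjusted p under 0.05 was reached by 18, all lower, but the share of all genes at that p is not given. At an adjusted p under 0.1 with no fold limit NOP2 (-0.48, SE 0.12), RRP15, UTP11 and NOC2 were lower, 4 of 58 members against 4.79% of all genes. Without ioc3ΔcHLB yaf9Δ replicate 1 the median was -0.41 and there were 3 called, NOP2, NOP8 and UTP23; without its replicate 3 the median was -0.16, and without ioc3Δ yaf9Δ replicate 3 NOP2 alone. The interaction of the truncation with yaf9Δ had a median of -0.14, with no member called (limma), 1 at an unadjusted p under 0.05 and none by edgeR or DESeq2, against 0.104% of all genes lower and 0.0173% higher. That median was -0.29 without ioc3ΔcHLB yaf9Δ replicate 1 and -0.26 without ioc3ΔcHLB replicate 3. It was -0.07 and -0.04 without ioc3ΔcHLB yaf9Δ replicates 2 and 3, -0.03 without ioc3ΔcHLB replicate 2 and -0.06 without wild-type replicate 2.

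Across the 6 strains ioc3Δ had the lowest mean for 56 of the 58 members; for the other 2 it was ioc3ΔcHLB yaf9Δ. In 28 members all 3 ioc3Δ libraries were below all 15 others, against 4.82% of all tested genes. The highest mean was in ioc3Δ yaf9Δ for 31 members, in yaf9Δ for 13 and in wild type for 11. No pairwise comparison that left out ioc3Δ called a member, so the order of the other 5 strains was not resolved by this test.

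**Figure D5:**
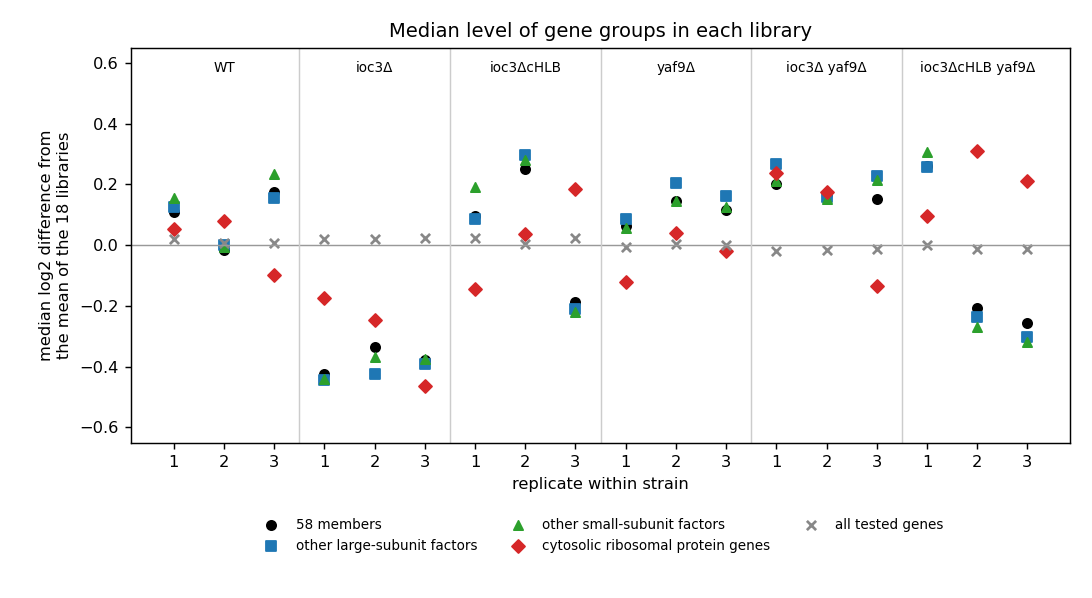
Median over each gene group of log2(CPM + 1) minus the gene's mean over the 18 libraries, for each library. The members (black circles) lie near the other assembly factors in every library, between -0.43 and -0.34 in ioc3Δ; the ribosomal protein genes (red diamonds) part from them in several libraries, and the median of all tested genes stays near 0.

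Other genes of the pathway were described from lists of assembly factors, polymerase subunits, regulators and ribosomal proteins. Their counts stand beside the shares of all genes given above for ioc3Δ, 3.11% called lower, 12.8% lower at an adjusted p under 0.1 and 17.7% lower with no overlap, and for the interaction, 3.27% called higher. Of 52 other large-subunit factors 14 were called lower in ioc3Δ (median -0.52), among them DBP2 (-0.86), an RNA helicase, and SDA1 (-0.80), and 25 were called higher in the interaction with yaf9Δ, DBP2 (1.18) the most. Of 38 other small-subunit factors 9 were called lower (median -0.52), such as RIO1 (-0.71) and NOB1 (-0.70), the kinase and nuclease of late maturation, and 17 in the interaction, such as KRR1 (0.88). For all 52 and all 38, every ioc3Δ library was below every wild-type library. Of 10 other snoRNA-protein and exosome genes none was called in ioc3Δ (median -0.38, 9 with an adjusted p under 0.1, limma), and GAR1 (0.88), CBF5 (0.77) and NHP2 (0.74), all H/ACA proteins, were called in the interaction.

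The RNA polymerase I list, 14 genes, had a median of -0.41 in ioc3Δ with none called and 8 at an adjusted p under 0.1 (limma); RPA43, RPA49 and RPA190 were called in the interaction, at 0.81, 0.67 and 0.59. Of 11 regulators of ribosome gene transcription only TOD6, the PAC-binding repressor, was called in ioc3Δ, at -0.78 (SE 0.31, adjusted p = 0.0826 by limma), and none in the interaction. DOT6, STB3 and SFP1, which acts as an activator of these genes, had values of -0.06, -0.10 and 0.04 in ioc3Δ with adjusted p-values of 0.741, 0.642 and 0.867 by limma. Of the 11 regulators 10 were below 0 in ioc3Δ, with a median of -0.18. At an adjusted p under 0.1 (limma) 2 were lower, TOD6 and RAP1 (-0.32), against 12.8% of all genes.

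The ribosomal proteins themselves had smaller changes. Of 138 cytosolic ribosomal protein genes none was called lower in ioc3Δ, though 63 had an adjusted p under 0.1 (limma) and the median was -0.30; 17 were called in the interaction, with a median of 0.43. Within strains they and the members parted: in ioc3ΔcHLB replicate 3 the members' median was -0.19 and the ribosomal proteins' 0.18, and in ioc3ΔcHLB yaf9Δ replicates 2 and 3 the members were at -0.21 and -0.26 and the ribosomal proteins at 0.31 and 0.21. The part of these library differences in the comparisons was not tested other than by leaving libraries out.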

How the data were processed

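Total RNA of 18 cultures, 3 of each of 6 strains, was made into stranded poly(A) libraries and sequenced in pairs. Per the labels and the study's methods the authors aligned reads to sacCer3 with TopHat2 2.0.10 and Bowtie2 2.0, counted them per gene with HTSeq and normalised with edgeR 3.6.2 under R 3.1.0. The deposited signal is CPM at the effective library size. It fell on whole reads in 100% of values (tolerance 0.01 reads), which gave totals of 5145170 to 10192972 reads, with 1 read worth 0.0854 to 0.201 CPM. Tests cover the spread between cultures.

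Genes that reached 1 CPM in 3 or more libraries were tested with limma 3.58.1 (R 4.3.3) on log2(CPM + 1), a pseudocount of 1, in a single fit of all 18 libraries with a mean-variance trend. P-values were adjusted by Benjamini-Hochberg over 5786 genes in each of 13 comparisons, 2 of them added after values were seen. Counts at an unadjusted p under 0.05 cover the members only, with no share of all genes beside them. They do not show whether the members exceed other genes. A call needs an adjusted p under 0.1 and at least a 1.5-fold change, after the study's methods; counts with no fold limit were also added after values were seen. Recovered reads were tested with edgeR 4.0.16 and DESeq2 1.42.0 as alternatives, beside other pseudocounts, filters, scalings, subsets of libraries and a replicate block. The code was tested on simulated data.

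The members and lists were chosen with earlier results of these data known. Anchor genes were named by a fixed rule: 20 members of known role, plus the 3 members called with the largest decrease and increase in each main comparison, and up to 4 called genes of each other list. Of the genes, 5634 had a RefSeq entry and 196 had none. Promoter windows were cut from the R64 genome, whose sequence is that of sacCer3, and not from a table of windows as planned. 4 lines of the table were empty and not analysed here. Replicate numbers paired samples (every correlation of deviations over 0.1) in 2 of 15 strain pairs, wild type with ioc3Δ (0.206, 0.212 and 0.11) and ioc3Δ with ioc3Δ yaf9Δ (0.23, 0.602 and 0.572).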

Additional observations from a re-analysis of the deposited data

Results flagged for a closer look

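The effect of losing Ioc3 differed between cells with and without Yaf9 in 22 of the 58 members, by the interaction term of the limma fit. Of all genes, 3.27% were called higher in that test. The effect without Yaf9 exceeded that with Yaf9 by 0.91 (NOP6), 0.89 (NOP13), 0.84 (NOP2), 0.81 (RPF2), 0.80 (NOP56), 0.80 (NOP7), 0.78 (RRP8), 0.72 (RRP15), 0.71 (NOP58), 0.70 (RRP17), 0.70 (RRP5), 0.69 (NOP15), 0.69 (NOP4), 0.67 (RPF1), 0.66 (NOC2), 0.62 (NOP10), 0.62 (NOP12), 0.62 (NOP53), 0.62 (RRP1), 0.61 (UTP30), 0.60 (RRP14) and 0.60 (UTP7) on the log2 scale. Of the 22, 20 had a PAC core in the promoter window and 15 an RRPE core; of the 36 members not called, 29 and 21 had them. Only 6 of the 22 were called in every alternative run. Strains had 3 libraries each, too few for a test of single libraries that stand apart.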

How the results depend on the processing

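In ioc3Δ against wild type the 4 calls became 7 under median-of-ratios scaling, 1 under scaling to total reads, 15 with wild-type replicate 2 and ioc3ΔcHLB replicate 3 both left out, and 2 to 15 with single replicates left out. The 51 members with an adjusted p under 0.1 became 22 under total-read scaling and 31 to 51 with a replicate left out. The interaction of ioc3Δ and yaf9Δ had 10 calls in place of 22 under total-read scaling and 6 to 25 with a replicate left out; with no fold limit, 28 became 12 under total-read scaling, 49 with only the groups compared, 49 with the replicate block, and 6 to 32 with a replicate left out. The replicate block was run for every comparison, although numbers paired the libraries in only 2 of 15 strain pairs. It gave 4 calls in ioc3Δ and 25 in ioc3Δ yaf9Δ against ioc3Δ, and changed no other count of calls by over 1.5 times. In ioc3Δ yaf9Δ against ioc3Δ, 25 became 5 under total-read scaling and 21 to 31 with a replicate left out. In ioc3ΔcHLB against ioc3Δ, 2 became 0 under total-read scaling, 20 with both libraries out and 0 to 20 with single ones out. Comparisons with 0 calls reached 1 in ioc3Δ yaf9Δ against yaf9Δ under median-of-ratios scaling, total-read scaling, edgeR and DESeq2 (0 to 1 with a replicate left out). They reached 1 in ioc3Δ yaf9Δ against wild type with both libraries out (0 to 2), and 1 in ioc3ΔcHLB yaf9Δ against wild type (0 to 4) and against ioc3ΔcHLB (0 to 2) under total-read scaling. With single replicates out, ioc3ΔcHLB yaf9Δ had 0 to 3 calls against yaf9Δ and 0 to 3 against ioc3Δ yaf9Δ. The causes were not tested. For named members in the comparisons with wild type or with yaf9Δ, 2298 values kept their side of the call, 3 lost it, 9 gained it and 0 reversed. These counts leave out the interactions, the comparisons with ioc3Δ or ioc3ΔcHLB, and that between the double mutants. There calls of named members were lost: in the interaction without ioc3Δ yaf9Δ replicate 1, NOC2, NOP10, NOP53, RPF1, RPF2 and RRP5 were no longer called.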
